A study of Mus musculus with 53 samples.

Results

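The apolipoprotein and lipoprotein assembly genes described here are Apoa1, Apoa2, Apoa4, Apoa5, Apob, Apoc2, Apoc3, Apoe, Apom and Mttp, 10 in all. They were taken by gene symbol from the 3 deposited count tables, in which all 10 have a row, out of 55262 Ensembl genes in the tables together. RNA was sequenced from 53 samples of whole liver tissue of male C57BL/6J mice, 1 library each, called livers here, to ask how liver injury and the loss of Bmp8b, a ligand of the bone morphogenetic protein family, alter gene expression. The diet experiment used mice described as 9 weeks old, with 7 livers labelled Bmp8b knockout and 7 wild-type livers after 32 weeks of Western diet (WD), and 9 wild-type livers after 32 weeks of low-fat control diet (LFD). In the carbon tetrachloride (CCl4) experiment, mice 16 weeks old received an intraperitoneal injection of 2 μl per g body weight of a mix of CCl4 and olive oil in equal volumes, and 6 labelled knockout and 4 wild-type livers were taken 3 days later. The controls were 6 wild-type livers 3 days after the same volume of olive oil. In the partial hepatectomy (PH) experiment, also at 16 weeks, 4 labelled knockout and 5 wild-type livers were taken at day 3, and 5 wild-type samples are the tissue resected at day 0. The titles give the numbers 12 to 16 to both wild-type groups, and some add the letter N, for 13 and 14 at day 3 only. Day 0 and day 3 samples of a number may come from 1 mouse, which the labels do not say. No control group carried the knockout label, and the labels describe neither the allele nor the tissue in which the gene was lost.

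Lipoproteins carry triglyceride and cholesterol through the blood in particles coated with apolipoproteins. Hepatocytes assemble very-low-density lipoprotein by loading lipid onto apolipoprotein B with the help of the microsomal triglyceride transfer protein, whereas high-density lipoprotein (HDL) starts from lipid-poor apolipoprotein A-I that takes up phospholipid and cholesterol. Smaller apolipoproteins move between particles and set how fast triglyceride is hydrolysed and how the remnants are taken up. The liver makes most of these proteins, and the small intestine of the mouse also makes several of them, among them apolipoproteins A-I, A-IV and B.

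Of the 10 genes, Apoa4 was higher and Apoa2 lower in wild-type livers in all 3 challenges, and the bases before their start sites are shown for that contrast. The sequences are from RefSeq on GRCm38.p6 and lie upstream of both the RefSeq start and the GENCODE start of each gene, read on the plus strand, 5′ to 3′. Capitals mark an exact match to 1 of the 4 motifs searched on both strands. They were the nuclear receptor half-site, spelled AGGTCA, the TATA box, spelled TATAAA, the CCAAT box, and the HNF4 motif, spelled CAAAGTCCA. The first stretch is chr9:46240594-46240695 and the second is chr1:171224804-171225053.
Apoa4: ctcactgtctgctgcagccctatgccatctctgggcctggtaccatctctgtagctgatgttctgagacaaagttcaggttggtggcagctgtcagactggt
Apoa2: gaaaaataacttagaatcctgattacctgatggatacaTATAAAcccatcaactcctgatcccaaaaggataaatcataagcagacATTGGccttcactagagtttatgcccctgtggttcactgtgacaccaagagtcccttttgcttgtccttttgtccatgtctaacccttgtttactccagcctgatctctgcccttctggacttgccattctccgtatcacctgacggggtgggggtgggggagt
The 102 bases before Apoa4 held none of the motifs. Of all windows cut to 102 bases, 5.85% held the half-site, 5.31% TATAAA, 13.8% the CCAAT box and 0.103% the HNF4 motif. The stretches of Apoa4 and Apoa2 differ in length and are not compared with each other. The 250 bases before Apoa2 held the letters TATAAA, which 12.4% of all 32851 promoter windows of that length contain. They lie near the end of the stretch far from the start site, and whether they act as a TATA box was not tested. The stretch also held the CCAAT box read from the minus strand, which 33.8% of those windows contain on one strand or the other. RefSeq windows were matched for 9 of the 10 genes. The half-site occurred in those of Apoc2 and Apoa2, there in the window of another start, against 14.0% of all windows, and the HNF4 motif in 0 of the 9, against 0.384% of all windows. TATAAA occurred for 4 of the 9, Apoa2, Apoa5, Apob and Apoe, against 12.4% of all windows. The CCAAT box occurred for 1 of the 9, Apoa2, against 33.8%. In these counts a gene holds a motif if any of its windows does, while the percentages are shares of single windows. A gene with more than 1 window has more chances, so counts and percentages are not on the same scale.

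Levels are given in CPM, a gene's counts scaled to a common library size within each experiment, so they are compared between groups of an experiment and not between experiments. A diet library held between 8963187 and 15196537 counts, a CCl4 library between 2661699 and 6364414, and a PH library between 2450358 and 6914274. The 10 genes together took 2.53% to 3.99% of the counts of a liver. Bmp8b had at most 33 counts in any library, and it was not lower under the knockout label: over the summed libraries of a group it stood at 1.61 CPM in labelled knockout and 1.19 in wild-type livers on WD, at 1.32 and 0.657 after CCl4, and at 2.07 and 0.835 at day 3 of PH. The knockout label is therefore not checked by the RNA, and the text speaks of labelled knockout livers throughout. Among markers of hepatocytes, Alb averaged 55994 to 105491 CPM over the 9 groups. Of 5 enterocyte markers, Cdx2 and Sis were at 0 in all 9 groups. Vil1 and Fabp2 had counts in every group, and Lct in the diet groups and in wild-type CCl4 livers. The sum of the 5 ran from 127 to 211 CPM on LFD, 32.6 to 55.1 CPM after olive oil and 29.2 to 50.2 CPM at day 0 of PH. On WD it ran from 166 to 183 CPM in wild-type and from 168 to 214.5 CPM in labelled knockout livers. After CCl4 the ranges were 2.66 to 53.4 and 10.5 to 129 CPM in that order. At day 3 of PH they were 20.4 to 34.4 and 27.35 to 81.6 CPM. Wild-type liver 34 after CCl4 stood apart from its group, with 21.3 CPM summed over 5 proliferation markers, against 234 to 497 CPM in the other 3 wild-type CCl4 livers. In labelled knockout CCl4 livers the sum ran from 24.3 to 554 CPM, so a low sum occurred in that group too. The mouse numbers used here and below are those of the titles, without the letter N.

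Gene calls rest on a model fitted to all genes of an experiment, edgeR's quasi-likelihood test, and a gene is called where its p, adjusted after Benjamini and Hochberg, is under 0.05. On WD, 2 of the 10 genes were higher and 5 lower in wild-type livers than on LFD, where 37.4% of the 13005 genes tested were called, 20.4% higher and 17.0% lower. After CCl4, 1 gene was higher and 2 were lower than after olive oil, where 20.0% of 11663 genes were called, 11.1% higher and 8.87% lower. In PH, 2 of the 9 genes tested were higher and 4 were lower at day 3 than at day 0, where 17.4% of 11026 genes were called, 9.87% higher and 7.50% lower. The groups did not overlap for 1 of 10 genes on WD, against 7.27% of all genes, for 3 of 10 after CCl4, against 16.9%, and for 5 of 9 in PH, against 13.0%. The median log2 fold change of the 10 genes was −0.22 on WD, against −0.023 over all genes tested, −0.067 after CCl4, against 0.054, and −0.086 over 9 genes at day 3 of PH, against −0.0047. Scaling by total counts in place of TMM moved the median of all genes up by 0.17 on the log2 scale for WD and by 0.24 for CCl4. With it, 84.0% of the called genes were higher on WD and 82.1% after CCl4, against 54.5% and 55.6% with TMM, and the 10 genes had 3 called higher and 2 lower in either challenge. Called genes are described relative to the median gene, as TMM gives them. The i5 index of the libraries is tied to the CCl4 and PH comparisons. All olive oil libraries carry D504 or D505, while the wild-type CCl4 libraries carry D503, except liver 34 with D505, the 1 wild-type CCl4 liver that shares an index with olive oil livers. With the i5 index as covariate, this comparison therefore rests on liver 34 and on labelled knockout livers 22 and 35, which link the indices. Such a fit is not a check independent of liver 34. All day 3 libraries of PH carry D507 and no day 0 library does, so index and day cannot be told apart there.

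**Figure D1:**
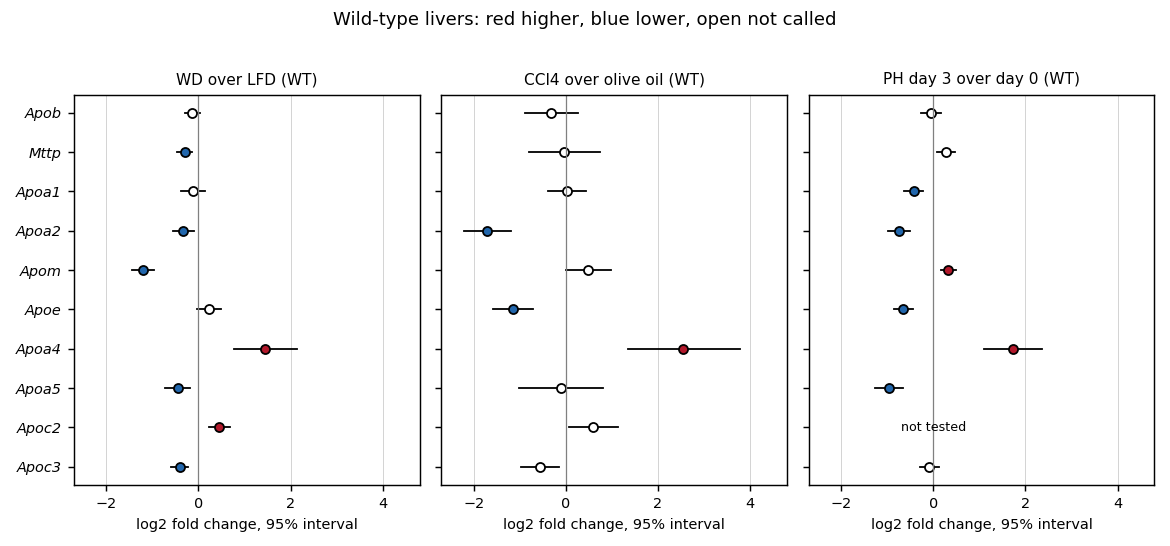
Log2 fold changes (x axis) of the 10 genes in wild-type livers with 95% intervals, for WD over LFD (7 and 9 livers), CCl4 over olive oil (4 and 6) and PH day 3 over day 0 (5 and 5). Red points were called higher, blue lower and open points not called. Apoa4 lies right of 0 and Apoa2 left of 0 in every panel, Apom changes side, and the intervals are widest after CCl4.

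Apob and Mttp, the genes of the apolipoprotein B particle, moved little. Apob encodes the structural protein that stays with a very-low-density particle for its lifetime, and Mttp the subunit of the transfer protein that lipidates it in the endoplasmic reticulum. On WD, Apob had 4127 to 5230 CPM with a median of 4492, against 4032 to 5781 CPM with a median of 5173 on LFD. All 7 WD livers lay within the LFD range, and the log2 fold change was −0.13 (SE 0.08, edgeR adjusted p = 0.227). Mttp had 339 to 425 CPM with a median of 359 on WD, against 386 to 527 CPM with a median of 457 on LFD. It fell by 0.30 on the log2 scale, a 1.23-fold lower level (SE 0.08, edgeR adjusted p = 0.00314), although 3 of the 7 WD livers lay within the LFD range. The call was lost with scaling by total counts (log2 fold change −0.14, edgeR adjusted p = 0.102) and within i5 index D501 and D502, where the adjusted p was 0.112 and 0.0575.

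After CCl4, Apob had 5647, 1580, 4682 and 4349 CPM in wild-type livers 4, 34, 5 and 7, against 4387 to 6065 CPM with a median of 4789 after olive oil. Mttp had 336.5, 57.9, 405.5 and 357 CPM in the same livers, against 248 to 369 CPM with a median of 292 after olive oil. Liver 34 was lowest for both genes and lay outside the olive oil range, while the other 3 were within it or close to it. With all 4 livers the log2 fold changes were −0.32 (95% interval −0.90 to 0.25) for Apob and −0.036 (−0.80 to 0.73) for Mttp, and without liver 34 they were −0.052 and 0.31, none of them called. With the i5 index as covariate, a fit that rests in part on liver 34, they were −0.69 and −0.94 (edgeR adjusted p = 0.0862 and 0.0672). In PH, Apob had 4617 to 5660 CPM at day 3, against 5060 to 5921 CPM at day 0, with a log2 fold change of −0.046 (−0.26 to 0.17). Mttp had 377, 433, 350.4, 377 and 498 CPM at day 3 in wild-type livers 12 to 16, against 305, 330.1, 343, 346 and 357 CPM at day 0. Its log2 fold change of 0.28 missed the threshold (SE 0.10, edgeR adjusted p = 0.0572), while DESeq2 and limma voom called it (adjusted p = 0.0267 and 0.0498), as did edgeR without wild-type day 3 liver 14 (adjusted p = 0.0308).

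The HDL genes Apoa1, Apoa2 and Apom did not move together. Apoa1 encodes the main HDL protein, which forms the particle and activates the cholesterol-esterifying enzyme Lcat. On WD it had 3932 to 4642 CPM with a median of 4457, against 3742 to 5971 CPM with a median of 4827 on LFD. After CCl4 it had 13587, 8126, 9157 and 9140 CPM in wild-type livers 4, 34, 5 and 7, against 8924 to 11135 CPM with a median of 9683 after olive oil. Neither response was called, with log2 fold changes of −0.12 (95% interval −0.37 to 0.14) on WD and 0.015 (−0.40 to 0.43) after CCl4. In PH, Apoa1 had 6970, 8182, 7388, 7581 and 7593 CPM in day 3 livers 12 to 16, against 8595, 11051, 10613, 9860 and 10572 CPM at day 0. Every day 3 liver was below every day 0 liver, and Apoa1 was 1.34-fold lower (log2 fold change −0.43, SE 0.10, edgeR adjusted p = 0.00478).

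Apoa2, the second most abundant HDL protein, was lower in all 3 challenges, by different amounts. On WD it had 3905 to 6213 CPM with a median of 4784, against 4998 to 7932 CPM with a median of 6094 on LFD. That is a 1.25-fold lower level (log2 fold change −0.33, SE 0.11, edgeR adjusted p = 0.0195), with overlapping groups. The call on WD was lost without wild-type liver 34 of that experiment, where the adjusted p was 0.0544, and with scaling by total counts, where it was 0.115. After CCl4 it had 2445, 1367, 1277 and 1389 CPM in wild-type livers 4, 34, 5 and 7, against 4497 to 5860 CPM with a median of 5416 after olive oil. All 4 were far below the olive oil range, 3 of them between 1277 and 1389 CPM, and Apoa2 was 3.27-fold lower (log2 fold change −1.71, SE 0.24, edgeR adjusted p = 4.09e-04). In day 3 livers 12 to 16 of PH, Apoa2 had 2388, 2895, 3130, 2653 and 2424 CPM, against 4997, 4441, 4828, 3952 and 4309 CPM at day 0. The groups did not overlap, and Apoa2 was 1.67-fold lower (log2 fold change −0.74, SE 0.12, edgeR adjusted p = 1.21e-04).

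Apom, the carrier of sphingosine 1-phosphate on HDL, changed in opposite directions on WD and at day 3 of PH. It had 61.3 to 72.7 CPM with a median of 66.5 on WD, against 125 to 188 CPM with a median of 149 on LFD. The 7 WD livers lay in a narrow band below all LFD livers, and Apom was the 1 gene of the 10 with no overlap between these groups. It was 2.29-fold lower (log2 fold change −1.20, SE 0.12, edgeR adjusted p = 2.54e-07). In PH it had 392, 408, 410.1, 387 and 392 CPM in day 3 livers 12 to 16, against 298, 335, 307, 346 and 302 CPM at day 0. Every day 3 value was above every day 0 value, a 1.25-fold higher level (log2 fold change 0.32, SE 0.08, edgeR adjusted p = 0.00648). After CCl4, Apom had 411, 145, 375 and 355 CPM in wild-type livers 4, 34, 5 and 7, against 196 to 268 CPM with a median of 226 after olive oil. Liver 34 was below the olive oil range and the other 3 above it. The log2 fold change was 0.49 with all 4 (edgeR adjusted p = 0.145) and 0.74 without liver 34 (edgeR adjusted p = 0.0075). With the i5 index as covariate, a fit that rests in part on liver 34, it was −0.071 (edgeR adjusted p = 0.852). Scaling by total counts and limma voom also called Apom higher (adjusted p = 0.0377 and 0.00224).

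**Figure D2:**
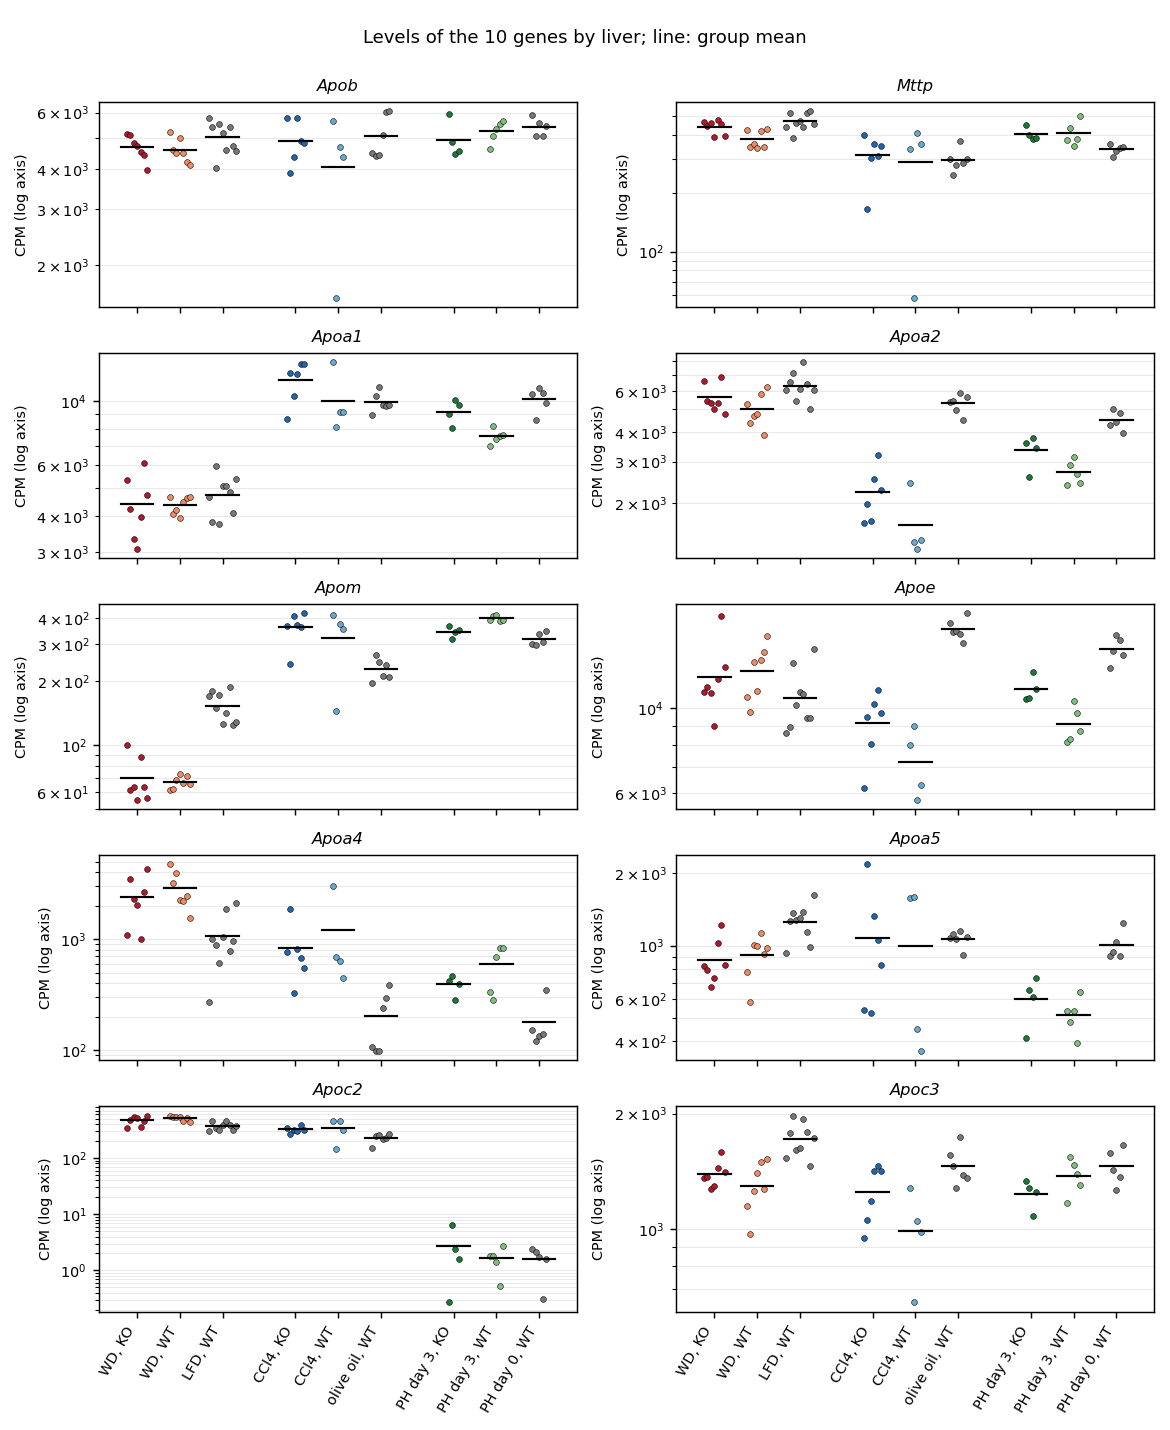
Level of each gene in CPM (log axis) in every liver of the 9 groups, a point for each liver and a line at the group mean, with the labelled knockout group (KO), the challenged wild-type group (WT) and the wild-type control from left to right in each experiment. Apom on WD and Apoa2 after CCl4 stand clear of their controls, and Apoc2 in the PH experiment lies below 10 CPM in every liver.

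Apoe encodes the ligand by which the LDL receptor and its relatives take up remnant particles. It was lower after CCl4 and at day 3 of PH and not called on WD. On WD it had 9748 to 15376 CPM with a median of 13175, against 8593 to 14277 CPM with a median of 10195 on LFD. The groups overlapped and Apoe was not called (log2 fold change 0.23, SE 0.13, edgeR adjusted p = 0.169), while scaling by total counts gave 0.39 with an adjusted p of 0.0177. After CCl4 it had 7985, 8948, 5755 and 6310 CPM in wild-type livers 4, 34, 5 and 7, against 14737 to 17649 CPM with a median of 15836 after olive oil. The groups did not overlap, and Apoe was 2.21-fold lower (log2 fold change −1.15, SE 0.21, edgeR adjusted p = 0.00177). In day 3 livers 12 to 16 of PH it had 8139, 8323, 10407, 9732 and 8728 CPM, against 14057, 15474, 15029, 13780 and 12690 CPM at day 0. Again no day 3 liver reached the day 0 range, and Apoe was 1.57-fold lower (log2 fold change −0.65, SE 0.10, edgeR adjusted p = 1.35e-04).

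Of the regulators of triglyceride lipolysis, Apoc2 is the activator of lipoprotein lipase, Apoc3 inhibits the lipase and remnant uptake, and Apoa5 favours lipolysis. On WD the activator was higher and the other genes were lower. Apoc2 had 442 to 572 CPM with a median of 529.9, against 301 to 465 CPM with a median of 378 on LFD, a 1.37-fold higher level (log2 fold change 0.46, SE 0.11, edgeR adjusted p = 0.00183). Apoc3 had 971 to 1523 CPM with a median of 1272, against 1461 to 1976 CPM with a median of 1722, a 1.32-fold lower level (log2 fold change −0.40, SE 0.09, edgeR adjusted p = 9.72e-04). Both pairs of groups overlapped at their edges. Apoa5 had 585 to 1131 CPM with a median of 975, against 935 to 1615 CPM with a median of 1274, a 1.37-fold lower level (log2 fold change −0.45, SE 0.14, edgeR adjusted p = 0.0104). The call of Apoa5 was lost with scaling by total counts (log2 fold change −0.30, edgeR adjusted p = 0.0735), and within i5 index D502 none of these 3 genes was called by edgeR (adjusted p of 0.102 to 0.152).

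After CCl4 none of these 3 genes was called by edgeR with all livers, and the wild-type livers were far apart. Limma voom called all 3, with log2 fold changes of −0.98 for Apoa5, 0.78 for Apoc2 and −0.50 for Apoc3 (adjusted p = 0.035, 0.00574 and 0.0169), and DESeq2 called Apoc3 (adjusted p = 0.0135). Apoa5 had 1580, 1585, 449 and 365 CPM in livers 4, 34, 5 and 7, against 913 to 1146 CPM with a median of 1075 after olive oil. A pair of livers lay above the olive oil range and a pair below it, so that the log2 fold change of −0.099 had a 95% interval of −1.01 to 0.81, and with the i5 index as covariate it was 0.64. Apoc3 had 1281, 645, 1047 and 980.5 CPM, against 1279 to 1738 CPM with a median of 1421 (log2 fold change −0.56, edgeR adjusted p = 0.0529, and 0.0297 with the i5 index as covariate). Apoc2 had 456, 148, 464 and 313 CPM, against 151 to 272 CPM with a median of 237 (log2 fold change 0.60, edgeR adjusted p = 0.103). Without liver 34 its log2 fold change was 0.85 (edgeR adjusted p = 0.00557). With the i5 index as covariate, a fit that rests in part on liver 34, it was 0.088 (edgeR adjusted p = 0.843).

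Apoa5 at day 3 of PH had 535, 479.7, 533, 396 and 639 CPM in livers 12 to 16, against 936, 1031, 904, 1243 and 905 CPM at day 0. No day 3 liver reached the lowest day 0 liver, and Apoa5 was 1.95-fold lower (log2 fold change −0.96, SE 0.15, edgeR adjusted p = 8.44e-05). Apoc3 had 1167 to 1544 CPM, against 1267 to 1652 CPM at day 0, with a log2 fold change of −0.086 (95% interval −0.30 to 0.13). Apoc2 could not be compared: it had 1 to 17 counts per library in the PH table, against 611 to 3482 in the CCl4 table and 2907 to 8898 in the diet table, and did not pass the filter on low counts. Of its exon bases, 79.5% are shared with a second gene, Gm44805, which has a row in the PH table alone, with 0 counts. The part of this overlap in the low count of Apoc2 was not tested.

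Apoa4 encodes an apolipoprotein of chylomicrons and HDL that the mouse liver also makes, and it was higher in each of the 3 wild-type challenges. On WD it had 1550 to 4719 CPM with a median of 2473, against 273 to 2136 CPM with a median of 960 on LFD. The lowest WD liver lay below the highest LFD liver, and Apoa4 was 2.74-fold higher (log2 fold change 1.45, SE 0.33, edgeR adjusted p = 0.00141). Libraries of this experiment carry one of the i5 indices D501 and D502, and within D501 the log2 fold change was 2.50 and called, whereas within D502 it was 0.64 and not called (edgeR adjusted p = 0.157). After CCl4 it had 3022, 692, 642 and 449.7 CPM in wild-type livers 4, 34, 5 and 7, against 98.4 to 388 CPM with a median of 174 after olive oil. All 4 lay above the olive oil range, and liver 4 stood far above the other 3. The log2 fold change was 2.55 (SE 0.58, 5.87-fold higher, edgeR adjusted p = 0.00613), without liver 4 it was 1.53 with an adjusted p of 0.044, and with the i5 index as covariate it was 3.62. In day 3 livers 12 to 16 of PH it had 335, 286, 692, 828 and 826 CPM, against 121.5, 134, 139, 350.1 and 152 CPM at day 0. Only day 0 liver 15 reached the day 3 range, and Apoa4 was 3.31-fold higher (log2 fold change 1.73, SE 0.30, edgeR adjusted p = 4.06e-04).

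Apoa4 was also the most variable gene between livers of a group. Its coefficient of variation had a median of 53.6% over the 9 groups and reached 101% in wild-type CCl4 livers, while the medians of the other 9 genes lay between 9.5% and 19.7%, that of Apoc2 over 6 groups. In wild-type CCl4 livers 8 of the 10 genes had their widest spread, the exceptions being Apoa1 and Apoe, whose spread was widest in labelled knockout livers on WD (24.6% and 21.9%). Apom at day 3 of PH was the tightest of all, at 2.6% in 5 wild-type livers. The exons of Apoa4 are shared over 34.8% of their bases with the antisense gene Gm10680, which had 947 counts in the diet table, 10 in the CCl4 table and 4 in the PH table, and whether counting used the strand is not stated, so reads of the shared bases cannot be told apart. In the PH table a further antisense gene, Gm47528, brings the shared part to 69.8%.

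**Figure D3:**
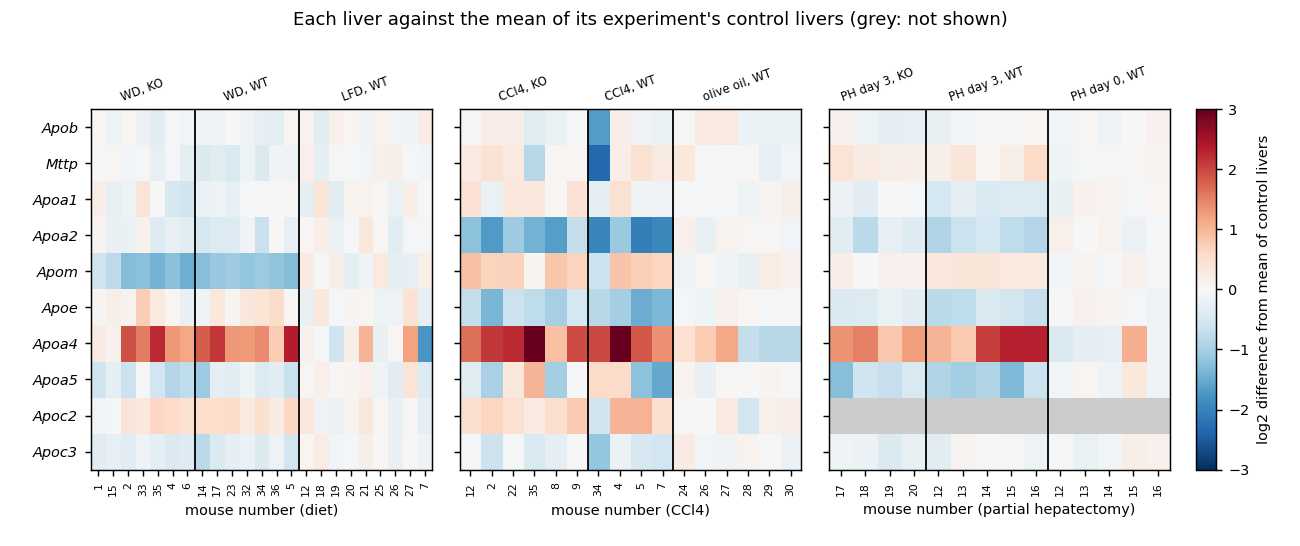
Each liver (column, mouse number below) against the mean of the control livers of its experiment, as log2 difference for each gene (row). Red is higher and blue lower, the colour scale ends at a difference of 3 in either direction, and grey marks Apoc2 in the PH experiment. Apoa4 is red and Apoa2 blue in most challenged livers of both labels, and wild-type liver 34 after CCl4 is blue for Apob and Mttp.

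Per kilobase of exon, which allows genes to be set side by side, the order of levels in LFD livers was Apoa2 with 11703 ± 1609 CPM per kb, Apoe with 4978 ± 907, Apoa1 with 3826 ± 599 and Apoc3 with 1690 ± 173 CPM per kb (SD, n = 9). Apoa4 with 587 ± 323, Apoa5 with 496 ± 82.8, Apoc2 with 459.9 ± 72.6 and Apob with 361 ± 41.0 CPM per kb followed. These 4 lay within the spread of Apoa4, and Apom with 152 ± 24.2 and Mttp with 75.2 ± 7.44 CPM per kb closed the order. On WD the order was Apoa2, Apoe, Apoa1, Apoa4, Apoc3, Apoc2, Apoa5, Apob, Apom and Mttp, with Apoa4 at 1609 ± 613 and Apoc3 at 1278 ± 194 CPM per kb, which do not differ beyond their spread (SD, n = 7). Apom and Mttp stood at 66.1 ± 4.38 and 61.1 ± 6.47 CPM per kb on WD. The order rests on the summed exon length of each gene in GENCODE and is affected by exons that the liver does not use. For Apoa4 that length includes the 34.8% of bases shared with Gm10680, and the part of this overlap in its place was not tested.

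On GRCm38, 4 of the 10 genes are neighbours in a cluster of 43.3 kb on chromosome 9, at 46228580 to 46271919. The start sites of Apoc3, Apoa4 and Apoa5 lie 7.1, 12.1 and 40.1 kb from that of Apoa1, with Apoc3 on the minus strand and the others on the plus strand. The 4 neighbours did not change as a block. On WD, Apoa4 was higher, Apoc3 and Apoa5 were lower and Apoa1 was not called, and at day 3 of PH, Apoa4 was higher, Apoa1 and Apoa5 were lower and Apoc3 was not called. After CCl4 edgeR called Apoa4 of the 4, DESeq2 also Apoc3, and limma voom also Apoc3 and Apoa5. Apoe and Apoc2 share a cluster of 27.6 kb on chromosome 7, at 19671579 to 19699188, with Apoc1 and Apoc4. The other genes stand apart from these, Apoa2 on chromosome 1 at 171225054 to 171226379, Mttp on chromosome 3 at 138089854 to 138144968, Apob on chromosome 12 at 7977648 to 8016835 and Apom on chromosome 17 at 35128997 to 35132050. Apoc1, an inhibitor of remnant uptake, had 1628 ± 419.5 CPM after CCl4, against 4514 ± 514 CPM after olive oil (SD, n = 4 and 6), a 2.77-fold lower level (log2 fold change −1.47, edgeR adjusted p = 9.78e-04) beside the 2.21-fold of its neighbour Apoe.

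The response of wild-type livers was compared between challenges in a fit of all 53 libraries, over the 12646 genes tested. Between WD and CCl4, 3 of the 10 genes differed, where 16.1% of genes did. The response of Apoa2 was 1.40 higher on WD than after CCl4 on the log2 scale (SE 0.21, edgeR adjusted p = 8.53e-06), that of Apoe was 1.39 higher (SE 0.20, edgeR adjusted p = 3.68e-06), and that of Apom was different by −1.68 (SE 0.22, edgeR adjusted p = 3.17e-07). Between WD and PH, Apoe differed by 0.88 (SE 0.20, edgeR adjusted p = 0.00731) and Apom by −1.52 (SE 0.22, edgeR adjusted p = 1.48e-05), 2 of the 9 genes compared, where 3.53% of genes differed. Between CCl4 and PH, Apoa2 differed by −0.98 (SE 0.23, edgeR adjusted p = 0.00789), 1 of the 9 genes compared, where 6.09% of genes did. The response of Apoa4 was not shown to differ, with a difference of −1.08 (95% interval −2.32 to 0.15) between WD and CCl4, 0.82 (−0.55 to 2.18) between CCl4 and PH, and −0.26 (−1.49 to 0.96) between WD and PH. Without wild-type CCl4 liver 4 the first of these was −0.079 and the second −0.19. The experiments also differ in the age of the mice, in the time since the challenge and in the control tissue, and these cannot be told apart from the challenge itself.

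The knockout label made no call among the 10 genes by edgeR in any experiment. Calls over all genes were few, with 0.0154% of genes on WD, 0.00857% after CCl4 and 0.154% at day 3 of PH. At an unadjusted p under 0.05 there was 1 of 10 genes on WD, against 5.89% of all genes, 0 of 10 after CCl4, against 6.16%, and 4 of 9 at day 3 of PH, against 9.08%. DESeq2 and limma voom also called none of them. On WD, Mttp had 389 to 474 CPM with a median of 455 in labelled knockout livers, against 339 to 425 CPM with a median of 359 in wild-type livers. The ranges overlapped, with a log2 fold change of 0.21 (SE 0.08, edgeR unadjusted p = 0.0144, adjusted p = 0.813). The 95% intervals of the other 9 genes on WD all included 0 and lay between −0.37 and 0.40 on the log2 scale, except for that of Apoa4, which ran from −1.01 to 0.45.

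The 4 genes in PH were Apoa1, Apoa2 and Apoe, all with positive values, and Apom with a negative one. Apoe had 10548, 10610, 12443 and 11218 CPM in labelled knockout livers 17, 18, 19 and 20, against 8139, 8323, 10407, 9732 and 8728 CPM in wild-type livers. The groups did not overlap, and the log2 fold change was 0.31 (SE 0.11, edgeR unadjusted p = 0.00993, adjusted p = 0.385). Apom had 364, 316, 344 and 349 CPM in labelled knockout livers, against 392, 408, 410.1, 387 and 392 CPM in wild-type livers. These did not overlap either, with a log2 fold change of −0.21 (SE 0.08, edgeR unadjusted p = 0.0197, adjusted p = 0.446). Of all genes, 2.68% had no overlap between these groups. Apoa1 and Apoa2 had log2 fold changes of 0.28 and 0.31 (edgeR adjusted p = 0.412 and 0.432). For Apoa1, Apoa2, Apoe and Apom, the labelled knockout mean lay between the wild-type day 3 mean and the day 0 mean, and the day 3 wild-type livers enter both comparisons. The 95% interval for Apoa4 ran from −1.25 to 0.06.

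After CCl4 the intervals for the knockout label were wide, from −1.72 to 0.68 for Apoa4 and from −0.80 to 1.02 for Apoa5, and for Apoa2 from −0.034 to 0.94. Apoa2 had 1642 to 3202 CPM with a median of 2133 in labelled knockout livers, against 1277 to 2445 CPM in wild-type livers. Both groups lay below the lowest olive oil liver, at 4497 CPM.

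**Figure D4:**
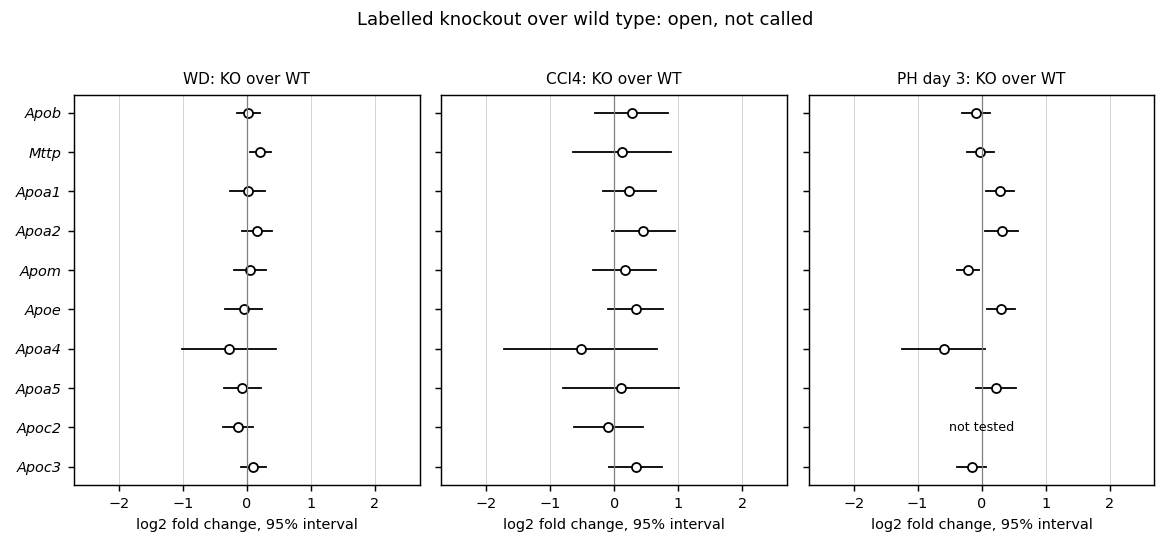
Log2 fold changes (x axis) of labelled knockout over wild-type livers with 95% intervals, on WD (7 and 7 livers), after CCl4 (6 and 4) and at day 3 of PH (4 and 5). No gene was called. The intervals of Apoa1, Apoa2 and Apoe lie right of 0 and that of Apom left of 0 at day 3 of PH, and Mttp lies right of 0 on WD.

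Around the 10 genes, lists of related genes gave the setting. For each list, the counts stand beside these shares of all genes tested. On WD 20.4% were called higher and 17.0% lower, after CCl4 11.1% and 8.87%, and at day 3 of PH 9.87% and 7.50%. Of 7 other apolipoproteins tested, 1 was higher and 3 were lower on WD, 0 and 3 after CCl4, and 1 and 3 at day 3 of PH. Apoh, a phospholipid-binding plasma protein, was lower in all 3, with log2 fold changes of −0.60 on WD, −0.66 after CCl4 and −0.38 at day 3 of PH (edgeR adjusted p = 1.06e-04, 0.0246 and 0.0108). Clu, also called apolipoprotein J, had 3511 ± 427 CPM at day 3 of PH, against 2147 ± 251 CPM at day 0 (SD, n = 5 each), a 1.64-fold higher level (edgeR adjusted p = 2.36e-04).

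Among 14 genes of apolipoprotein B lipidation and secretion, 1 was higher and 5 were lower on WD, 1 and 2 after CCl4, and 3 and 3 at day 3 of PH. Dgat2, which makes triglyceride in the hepatocyte, was lower in all 3, with log2 fold changes of −0.42, −1.31 and −0.65 in that order (edgeR adjusted p = 0.0043, 0.00203 and 1.35e-04). Tm6sf2, needed to lipidate very-low-density lipoprotein, was lower on WD (log2 fold change −0.49, edgeR adjusted p = 2.87e-05) and 2.28-fold higher at day 3 of PH (log2 fold change 1.19, edgeR adjusted p = 3.68e-05). Apobec1, the enzyme that edits Apob RNA, was 1.73-fold higher on WD (edgeR adjusted p = 8.78e-05).

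Of 8 genes of HDL formation and remodelling, 1 was higher and 4 were lower on WD, 0 and 3 after CCl4, and 0 and 2 at day 3 of PH. Lipc, the hepatic lipase, and Pon1, an HDL-bound esterase, were lower in all 3, and Lipc was 3.61-fold lower after CCl4 (edgeR adjusted p = 0.00191). Lcat was lower on WD (log2 fold change −0.54, edgeR adjusted p = 1.52e-04), and Abcg1, a cholesterol exporter that macrophages also use, was 3.35-fold higher (edgeR adjusted p = 3.70e-06).

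Lpl encodes lipoprotein lipase, the enzyme that Apoc2 activates. In wild-type livers it had 113 ± 47.9 CPM on WD, against 17.1 ± 4.5 CPM on LFD (SD, n = 7 and 9). After CCl4 it had 64.0 ± 32.15 CPM, against 27.1 ± 14.8 CPM after olive oil, with overlapping groups (SD, n = 4 and 6). At day 3 of PH it had 109 ± 47.9 CPM, against 29.3 ± 8.04 CPM at day 0 (SD, n = 5 each). It was 6.61-fold, 2.36-fold and 3.80-fold higher in that order (edgeR adjusted p = 2.54e-07, 0.0352 and 4.97e-05). In wild-type livers the sum of 5 adipocyte markers ran from 0.74 to 8.13 CPM on WD, against 0 to 23.6 CPM on LFD. After CCl4 it was 0, against 0 to 1.51 CPM after olive oil. At day 3 of PH it ran from 0 to 43.9 CPM with a median of 0.263, against 0 to 0.447 CPM at day 0. The part of other cell types in the level of Lpl was not tested. The list of the lipase and its regulators had 1 gene higher and 1 lower of 6 on WD and after CCl4, and 1 higher and 2 lower at day 3 of PH. There Angptl8, an insulin-induced inhibitor of the lipase, was 4.76-fold lower (edgeR adjusted p = 0.00153). Among receptors and uptake genes, 2 of 8 were higher and 0 lower on WD, 0 of 7 were called by edgeR after CCl4 (1 of 7 at an unadjusted p under 0.05), and 2 of 7 were higher and 1 lower at day 3 of PH. Vldlr, a remnant receptor that the normal liver hardly expresses, was 2.17-fold higher on WD (edgeR adjusted p = 3.87e-04), and Sdc1, a heparan sulfate receptor for remnants, was 2.01-fold higher at day 3 of PH (edgeR adjusted p = 2.65e-05).

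Of 18 transcription regulators of these genes, 0 were higher and 5 lower on WD, 0 and 5 after CCl4, and 1 and 5 at day 3 of PH. Of all genes tested, 17.0%, 8.87% and 7.50% were called lower in that order. Hnf4a, which binds the promoters of many apolipoprotein genes, had 468 CPM on WD, against 669 CPM on LFD, with no overlap (log2 fold change −0.51, SE 0.09, edgeR adjusted p = 1.21e-04). Mlxipl, the carbohydrate-responsive factor, was 1.45-fold lower on WD, 3.53-fold lower after CCl4 and 1.34-fold lower at day 3 of PH (edgeR adjusted p = 0.00189, 4.09e-04 and 0.0038). Cebpa was 2.48-fold lower after CCl4 and 1.57-fold lower at day 3 of PH (edgeR adjusted p = 0.00876 and 8.40e-04). By the knockout label, 1 gene of all these lists was called by edgeR: Nr0b2, a repressor induced by the bile acid receptor, with 43.2 ± 16.2 CPM in labelled knockout livers and 15.3 ± 5.06 CPM in wild-type livers at day 3 of PH (SD, n = 4 and 5, log2 fold change 1.51, edgeR adjusted p = 0.0348). At day 0 it averaged 33.9 ± 10.6 CPM (SD, n = 5).

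**Figure D5:**
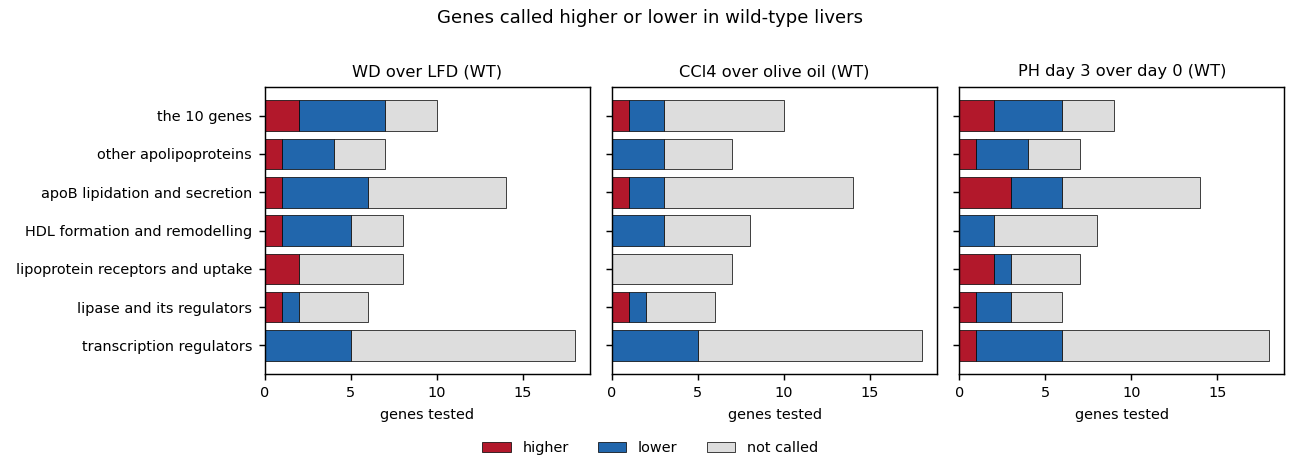
Number of genes tested in each list (x axis) that were called higher (red), called lower (blue) or not called (grey) in wild-type livers, for WD over LFD, CCl4 over olive oil and PH day 3 over day 0. The list of the 10 genes is at the top, with 9 tested at day 3 of PH. The transcription regulators at the bottom hold 5 of 18 genes lower in each challenge. Of all genes tested, 17.0% were called lower on WD, 8.87% after CCl4 and 7.50% at day 3 of PH.

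Genes with the most similar pattern to Apoa4 were sought by the mean absolute difference of log2 fold changes over the 6 comparisons, among the 7233 genes whose mean level reached 10 CPM in each experiment. The closest were Tagln2 with a mean difference of 0.12, Pkm with 0.18 and Fstl1 with 0.18. For Mttp they were Ubqln1 with 0.06, Nat10 with 0.06 and Cept1 with 0.06. The comparisons of an experiment share the challenged wild-type livers, so the 6 are not independent.

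Markers of cell types moved with the challenges. Of all genes tested, 37.4% were called on WD, 20.0% after CCl4 and 17.4% at day 3 of PH. On WD, all 8 hepatocyte markers tested were lower, their summed level running from 59864 to 90030 CPM on WD, against 92917 to 129839 CPM on LFD, while all 8 macrophage markers were higher (487 to 1162 CPM, against 172 to 456 CPM) and 5 of 6 stellate and fibroblast markers were higher (355 to 778 CPM, against 198 to 291 CPM). Also on WD, 3 of 5 cholangiocyte markers (80.7 to 447 CPM, against 30.8 to 115 CPM), 3 of 5 endothelial markers (174 to 221 CPM, against 144 to 208 CPM) and 2 of 4 lymphocyte and neutrophil markers tested (5.13 to 11.7 CPM, against 3.17 to 8.86 CPM) were higher. Alb, the plasma carrier albumin, was lower by 0.62 and Ttr, transthyretin, by 0.48 on the log2 scale on WD (edgeR adjusted p = 2.47e-04 and 6.57e-04), beside values between −0.30 and −1.20 for the 5 lower genes of the 10. After CCl4, 1 of 8 hepatocyte markers was higher and 1 lower (81447 to 147645 CPM, against 103405 to 140096 CPM after olive oil), 4 of 8 macrophage markers were higher (359 to 607 CPM, against 166 to 497 CPM), 3 of 6 stellate and fibroblast markers were higher (357 to 893 CPM, against 106 to 274 CPM), and Alb and Ttr were not called (edgeR adjusted p = 0.45 and 0.0652). The median log2 fold change of the 8 hepatocyte markers after CCl4 was −0.56, against 0.054 over all genes tested. By edgeR, 5 of the 8 had an unadjusted p under 0.05 in either direction. There 2 of 5 endothelial markers were lower (79.2 to 181 CPM, against 82.6 to 177 CPM), and 1 of 3 cholangiocyte markers (187 to 317 CPM, against 41.0 to 118 CPM) and 1 of 2 lymphocyte and neutrophil markers (3.46 to 140.4 CPM, against 2.39 to 12.9 CPM) were higher. In PH, 2 of 8 hepatocyte markers were higher and 0 lower at day 3 (138030 to 159764 CPM, against 89449 to 107211 CPM at day 0), 0 of 6 macrophage markers were called by edgeR (0 of 6 at an unadjusted p under 0.05), and 4 of 6 stellate and fibroblast markers were higher (205 to 764 CPM, against 110.2 to 221 CPM). Of the other lists, 2 of 5 endothelial markers were lower (89.6 to 141 CPM, against 134 to 177 CPM), and 1 of 3 cholangiocyte markers (156 to 279 CPM, against 88.3 to 204 CPM) and the 1 lymphocyte and neutrophil marker tested (2.32 to 11.1 CPM, against 0.912 to 2.88 CPM) were higher. The median log2 fold change of the 8 hepatocyte markers at day 3 of PH was 0.23, against −0.0047 over all genes tested, and edgeR did not call 6 of the 8. Alb was higher by 0.76 on the log2 scale there (edgeR adjusted p = 7.44e-05), while Apoa1, Apoa2, Apoa5 and Apoe were lower. All 5 proliferation markers were higher in each challenge. In whole liver, fewer cells of a type and less RNA per cell cannot be told apart, and the part of these marker changes in the values of the 10 genes was not tested.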

How the data were processed

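RNA of 53 samples of whole liver tissue was sequenced after an Illumina mRNA preparation, 1 library each, and the authors deposited raw counts per Ensembl gene with no normalization. TopHat2 2.0.11, HTSeq and GRCm38 are named in the submitters' processing notes. The annotation release, strand setting and filters are not given in the sources used here. The PH table holds 53379 genes and the others 38293 each, and 36410 are in all 3. Groups and mouse numbers follow the labels. Where nothing shows separate litters, p-values measure the spread between these livers.

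Each experiment was fitted alone with its 3 groups in edgeR 4.0.16 (R 4.3.3), with TMM, filterByExpr, the two-sided quasi-likelihood F-test and Benjamini-Hochberg adjustment over all genes tested (called under 0.05). Differences between challenges came from 1 fit of the 53 libraries. Intervals are 95%. Symbols and exon lengths are from GENCODE vM21. Alternatives were DESeq2 1.42.0, voom of limma 3.58.1, total counts, no filter, only 2 groups, i5 index as covariate or within an index, a replicate block and leaving out each library. In the fit between challenges, only wild-type CCl4 libraries and wild-type PH libraries of both days were left out in turn. There no diet or olive oil library was left out. On simulated counts, 91.5%, 24.0% and 84.5% of 200 genes changed 2-fold were called for WD, CCl4 and PH (12892, 11499 and 10839 genes). Named genes are the 10, up to 3 called genes per list and challenge with the smallest p, Alb and Ttr. Genes, lists and rules were chosen with earlier results of these data known. Counts of Cdx2 and Sis at 0 allow up to 3 counts per library (95%). No pair of libraries of a group agreed within counting error.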

Additional observations from a re-analysis of the deposited data

Results flagged for a closer look

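Of 87 sets of 4 to 9 livers examined, a gene in a group each, 6 had a highest or lowest liver set apart from the rest by Dixon's 95% criterion, and chance alone sets apart about 1 set in 20. Wild-type liver 4 after CCl4 was high for Apoa4 (3022 CPM, the next at 692 CPM) and for Apoa2 (2445 CPM, the next at 1389 CPM). Labelled knockout liver 35 after CCl4 was high for Apoa4 (1869 CPM, the next at 821 CPM) and low for Apom (241 CPM, the next at 361 CPM). Wild-type liver 26 after olive oil was low for Apoa5 (913 CPM, the next at 1063 CPM). Wild-type liver 15 at day 0 of PH was high for Apoa4 (350 CPM, the next at 152 CPM).

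The wild-type responses of 3 genes differed between challenges by the test of the difference in edgeR. Between WD and CCl4 the differences of log2 fold changes were 1.40 for Apoa2, 1.39 for Apoe and −1.68 for Apom. Between CCl4 and PH it was −0.98 for Apoa2. Between WD and PH they were 0.88 for Apoe and −1.52 for Apom.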

How the results depend on the processing

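Over all alternatives and leave-outs, 1882 of 1917 recomputed values of the 10 genes kept their side of the threshold, 11 lost a call, 24 gained one and 0 called values changed sign, while 70 uncalled values changed sign. The 1917 include all values by the knockout label, none of them called, and leave-outs of livers outside the comparison. The total therefore does not measure how stable the calls are. On WD, 7 of the genes were called, 6 to 7 with a library left out, 5 with total counts, 6 within index D501 and 1, Apom, within D502 (1401 genes), which holds 4 WD and 5 LFD livers. For CCl4, 3 were called, 5 with total counts, 7 with limma voom, 4 with DESeq2, and 5 without livers 34 and 35 together, a pair chosen with earlier results known, with 3 to 5 when a library was left out (5 without wild-type liver 34). Liver 35 is a labelled knockout liver and carries i5 index D505, as does wild-type liver 34. The i5 index as covariate raised the genes called after CCl4 to 3599. For PH, 6 were called, and 6 to 7 with a library left out or other settings. With the mouse number as replicate block, 6 were called and 1710 genes in all, against 1915. Same-numbered day 0 and day 3 livers did not deviate together (correlations −0.02 to 0.09, with 2 of 5 matching their own number best). Day 0 and day 3 tissue of 1 mouse need not deviate alike, and 13 and 14 carry an N at day 3 only. The check therefore cannot show whether the samples are paired, and the fits reported above leave the number out. The cause of these shifts was not tested.

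By the knockout label, 0 of the genes were called under any setting. Counts over all genes were 2 on WD (1 within D502, 284 at an unadjusted p under 0.05), 1 after CCl4 (21 by DESeq2, 2 by voom, 2 without livers 34 and 35 together, 1 to 2 with a library left out, 2 without labelled knockout liver 35, and 0 within D503 by edgeR, 734 at an unadjusted p under 0.05), and 17 at day 3 of PH (63 by DESeq2, 182 without the filter, 3 to 40 with a library left out, 3 without wild-type day 3 liver 15 or labelled knockout liver 20, 5 without wild-type day 3 liver 12 or labelled knockout liver 19, 40 without labelled knockout liver 17, and moved by over 1.5 times by each library but day 0 livers 14 and 16). The difference between CCl4 and PH was called for 1 gene, for 3 with total counts and for 1 to 2 with a wild-type CCl4 or PH library left out (2, with Apoc3, without wild-type CCl4 liver 4). The i5 covariate could not be fitted for PH. For CCl4, 24.0% of simulated 2-fold changes were called, against 84.5% for PH at as many livers and similar depth. The simulation changed 200 of 11499 genes for CCl4, fewer than the 2331 called in the data. The adjusted p depends on that number, so 24.0% is not the share of 2-fold changes found in these data. Small changes after CCl4 may still go uncalled.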
